A study of Mus musculus with 8 samples.

Results

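The genes described here are 10 imprinted growth genes, *Igf2*, *Igf2r*, *Dlk1*, *Mest*, *Plagl1*, *Grb10*, *Peg3*, *Ndn*, *Phlda2* and *Sgce*, taken by symbol from the 21859 genes counted in mouse aortas. All 10 had a count in the files, and 9 of them were among the 15077 genes that passed a filter on low counts, *Phlda2* being the exception. Aortas came from 4 *ApoE*-/- and 4 wild-type (WT) C57BL/6 mice, all male, 40 weeks old and on a normal chow diet. *ApoE*-/- mice lack apolipoprotein E in every tissue and are prone to atherosclerosis, and the study set them beside WT mice to find genes that differ in the diseased vessel. Each library was made from the total RNA of a whole aorta, depleted of ribosomal RNA and read as strand-specific pairs, so it holds every cell type of the vessel and of any tissue left on it. In such bulk samples, fewer cells of a type and less RNA per cell cannot be told apart.

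Imprinted genes are transcribed mainly from the copy inherited from the father or mainly from the copy inherited from the mother, and the copies differ in DNA methylation at a control region. Many act on fetal growth: paternally expressed members such as *Igf2*, *Dlk1*, *Mest*, *Plagl1* and *Peg3* tend to promote it, and maternally expressed members such as *Igf2r*, *Grb10* and *Phlda2* tend to restrain it. Most are strongly expressed in the fetus and placenta and decline after birth, while several, among them *Ndn* and *Peg3*, stay high in neurons. The libraries were not split by parental allele, so the values below are totals over both copies.

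Expression is given as TMM-normalized CPM, the read pairs of a gene scaled to the size of its library. Pairs on genes numbered 23240995 to 23940156 per *ApoE*-/- library and 18375898 to 21664598 per WT library, and *Apoe* itself had 14.7 to 36.3 CPM against 536 to 857 CPM, so each library had the level of its labelled genotype. All 11 contractile smooth muscle markers were detected in every library. *ApoE*-/- replicate 1 stood apart from the other 7 libraries: each of the 11 smooth muscle markers was at its lowest there, and their summed level was 5613 CPM against 12423 to 23123 CPM elsewhere. A list of 13 markers of sympathetic neurons and chromaffin cells summed to 7503 CPM in that library and to 78.1 to 1353 CPM in the others, and 12 of its 13 genes were highest there. *Th* and *Dbh*, enzymes of noradrenaline synthesis, had 932 and 1431 CPM in that library and at most 147 and 239 CPM in any other. The 7 nerve glia markers were also all highest in it, while the summed level of 8 adrenal cortex markers lay between 12 and 16.9 CPM in all 8 libraries. Cardiac muscle markers moved with genotype: 8 of 9 were lower in every *ApoE*-/- library than in every WT library. Sums over all 9 were 159.7 to 344 CPM against 419 to 737 CPM. *Ryr2*, the marker that overlapped, made up most of the sum in each *ApoE*-/- library. It had 123 to 311 CPM there and 192 to 335 CPM in WT libraries. Endothelial markers were mixed: 4 of 10 were lower in the same way, 6 overlapped, and the sums overlapped at 1829 to 2751 CPM against 2637 to 3167 CPM. None of these genes was at 0 in all libraries.

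Promoter windows of *Mest*, *Peg3* and *Grb10* are shown because these members, with *Ndn*, were highest together in *ApoE*-/- replicate 1, and CpG is marked because it is the site of DNA methylation. RefSeq (GRCm38.p6) held 15 windows of 250 bases before a start site for 9 of the 10 members; *Sgce* had none. For each gene the window with the most CpG is given. The 15 windows had a median of 10 CpG, against 6 over all 32851 windows, and 12 of the 15 lay above that median. The windows are written 5′ to 3′ on the strand of the gene with each CpG in capitals, and the *Peg3* window is limited to the 146 bases outside annotated exons.
Mest (chr6:30737800-30738049, plus strand): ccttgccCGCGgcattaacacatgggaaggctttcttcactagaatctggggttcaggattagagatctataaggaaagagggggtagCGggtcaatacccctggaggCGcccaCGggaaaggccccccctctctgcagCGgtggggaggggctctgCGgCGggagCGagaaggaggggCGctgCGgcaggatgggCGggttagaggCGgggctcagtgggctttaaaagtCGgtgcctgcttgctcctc
Peg3 (chr7:6730432-6730577, minus strand): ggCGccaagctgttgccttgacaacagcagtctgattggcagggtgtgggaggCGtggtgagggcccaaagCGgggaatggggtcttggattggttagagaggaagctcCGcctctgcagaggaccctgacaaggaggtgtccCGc
Grb10 (chr11:12037421-12037670, minus strand): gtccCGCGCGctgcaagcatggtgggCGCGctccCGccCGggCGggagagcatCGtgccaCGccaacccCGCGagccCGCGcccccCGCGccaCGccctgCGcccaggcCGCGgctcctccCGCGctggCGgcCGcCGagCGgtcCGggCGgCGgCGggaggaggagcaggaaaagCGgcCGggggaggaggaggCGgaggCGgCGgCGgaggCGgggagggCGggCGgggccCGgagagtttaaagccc
The *Grb10* window held 40 CpG, a number reached by 1.31% of all windows, and the *Mest* window held 14, reached by 29.4%. The full *Peg3* window held 8, reached by 43%. The *Ndn* window held 5, under the median and reached by 55.6% of all windows, and it is not printed because it lies in an annotated exon. The letters GGGGCCCC, a motif described for the *Plagl1* product and its own reverse complement, occurred in 1 of the 15 windows, that of *Peg3*, in the part not printed, and in 0.889% of all windows. GCCATNTT, a motif described for the factor YY1 and searched on both strands, occurred in none of the 15 and in 3.91% of all windows. A match of letters is a description of the window and not a binding site.

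Levels of the 10 genes spanned a wide range when divided by the length of their exons. In WT aortas the order by median CPM per kb was *Igf2r* (28.9), *Peg3* (20.7), *Grb10* (13.5), *Ndn* (9.23), *Sgce* (4.82), *Mest* (2.50), *Plagl1* (2.10), *Dlk1* (0.335), *Igf2* (0.1305) and *Phlda2* (0). Ranges over the 4 WT libraries overlapped between the neighbours *Ndn* and *Sgce*, *Mest* and *Plagl1*, and *Dlk1* and *Igf2*, and not between the other neighbours. *Igf2r* stood above 92.0% of 15070 tested genes with a known length, *Peg3* above 87.6% and *Grb10* above 78.4%, whereas *Dlk1* stood above 7.42% and *Igf2* above 2.01%. The place of *Igf2* is uncertain, because most of its exon bases are shared with a read-through gene and pairs there may not have been counted. Over its 2127 unshared bases alone the same pairs would give 0.351 CPM per kb, above *Dlk1* and above 7.89% of the tested genes. On either length the clearance receptor lay far above its growth factor ligand.

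**Figure D1:**
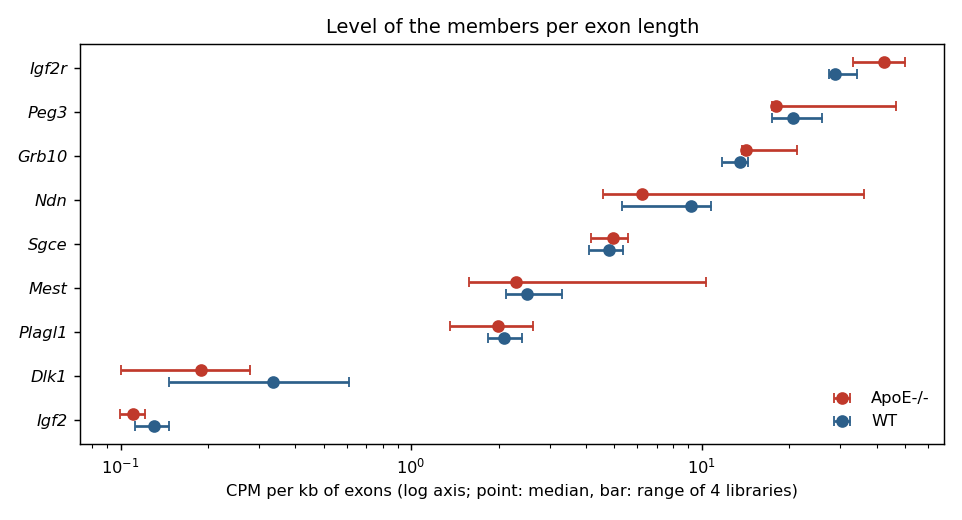
Level of 9 members in CPM per kb of exons (horizontal log axis) in *ApoE*-/- (red) and WT (blue) aortas, with points at the median and bars over the range of 4 libraries; *Phlda2* is left out because its WT level was 0. *Igf2r* lies at the top with a WT median of 28.9 and *Igf2* at the bottom with 0.1305, and the *ApoE*-/- bars of *Peg3*, *Ndn* and *Mest* reach far above their medians through *ApoE*-/- replicate 1.

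None of the 9 members tested differed between genotypes past the threshold. edgeR called 0 of 9 at an adjusted p under 0.05, where it called 0.464% of all genes tested. DESeq2 also called 0, where it called 4.97% of the genes with an adjusted p, but it gave no adjusted p for *Ndn*. At an unadjusted p under 0.05, edgeR reached 1 of 9, *Igf2r*, against 11.4% of all genes. No member had all 4 *ApoE*-/- libraries on the same side of all 4 WT libraries, whereas 8.71% of the genes tested did. The log2 fold change (*ApoE*-/- over WT) was above 0 for 6 members and below 0 for 3, with a median of 0.24 beside 0.05 over all genes. The highest of the 8 libraries was *ApoE*-/- replicate 1 for 4 of the 9 members (44.4%), *Mest*, *Grb10*, *Peg3* and *Ndn*, and for 26.4% of all genes tested. Without it, 3 members were above 0 and 6 below, with a median of −0.25 beside 0.00 over all genes. In the same 7 libraries, edgeR still called 0 of 9 members (3.91% of all genes) with 2 at an unadjusted p under 0.05 (18.7%), and DESeq2 called 1 (10.3% of all genes). The number of genes called over the whole table moved from 70 to 593 in edgeR when that library was left out, and 1 of 9 members no longer overlapped between genotypes, against 17.3% of all genes.

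**Figure D2:**
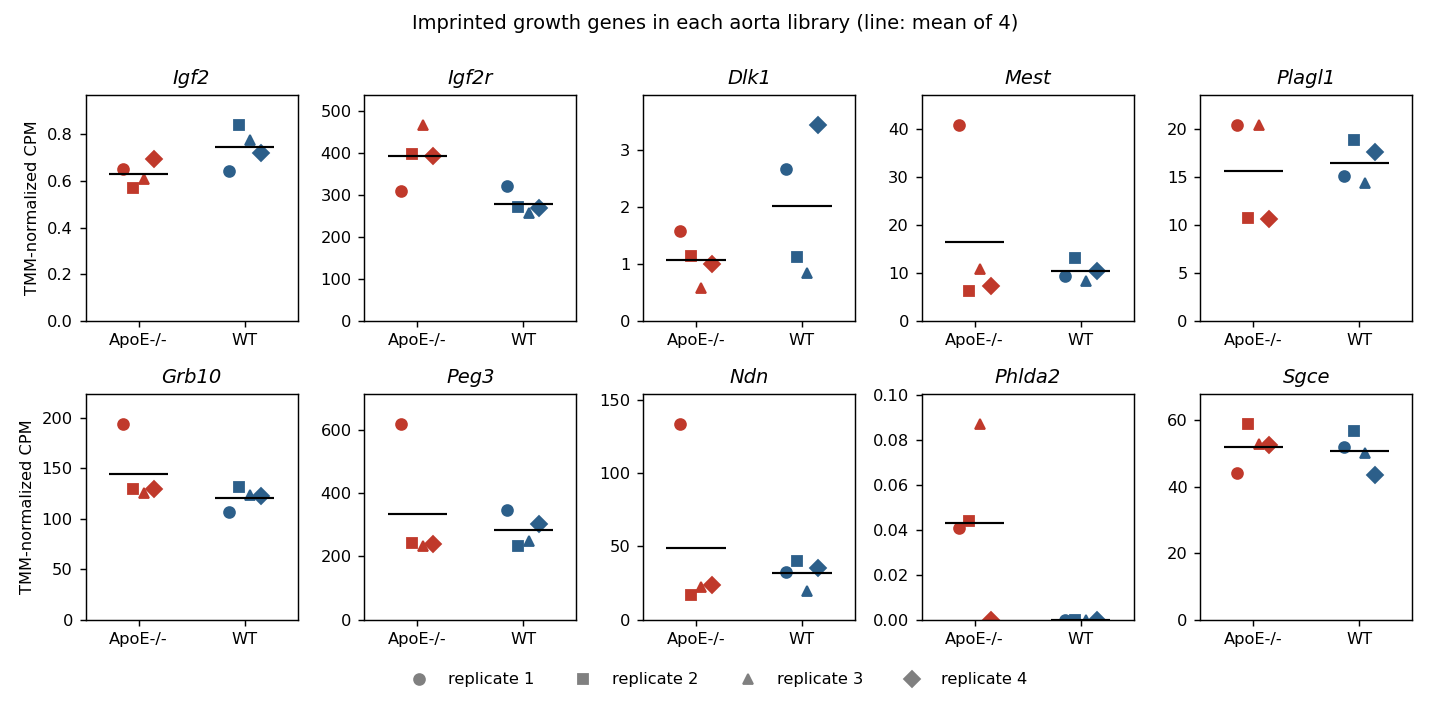
CPM of each of the 10 members (vertical axis, a scale of its own per gene, from 0) in the 4 *ApoE*-/- (red) and 4 WT (blue) libraries, with a symbol per replicate number and a line at the mean of 4. In *Mest*, *Grb10*, *Peg3* and *Ndn* the circle of *ApoE*-/- replicate 1 stands above the other 7 libraries, and in *Igf2r* it is the only *ApoE*-/- point inside the WT range.

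**Figure D3:**
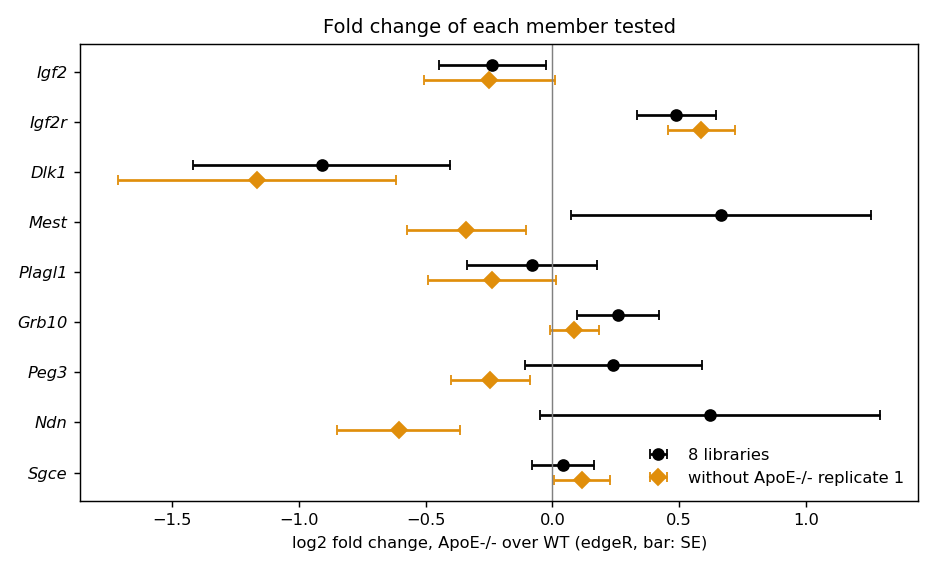
Log2 fold change of 9 members (*ApoE*-/- over WT, edgeR) with bars of 1 SE, from 8 libraries (black) and without *ApoE*-/- replicate 1 (orange). *Mest*, *Peg3* and *Ndn* change side, from 0.67, 0.24 and 0.62 to −0.34, −0.25 and −0.61, and *Igf2r* stays above 0 at 0.49 and 0.59.

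*Igf2r* (chr17:12682406-12769664, minus strand, GRCm38) encodes the cation-independent mannose 6-phosphate receptor, which takes Igf2 to lysosomes for breakdown and sorts lysosomal enzymes. It had 309, 396, 467 and 391.9 CPM in *ApoE*-/- replicates 1 to 4, and 320.0, 269.6, 256 and 268 CPM in WT replicates 1 to 4. *ApoE*-/- replicates 2, 3 and 4 all lay above the highest WT library, and replicate 1 lay between the WT libraries. The means were 391 ± 64.5 (SD, n = 4) and 279 ± 28.3 (SD, n = 4), and edgeR gave a log2 fold change of 0.49 (SE 0.16, unadjusted p = 0.0135, adjusted p = 0.238), which did not pass the threshold. DESeq2 gave 0.48 (SE 0.16, adjusted p = 0.0577). Without *ApoE*-/- replicate 1 the value was 0.59 (SE 0.13, adjusted p = 0.0526) in edgeR and 0.58 (SE 0.13, adjusted p = 0.000271) in DESeq2, so only that last combination called it. Over all 24 settings tried, the adjusted p of *Igf2r* ranged from 0.000271 to 0.544.

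Macrophage markers differed between genotypes. All 11 of 11 macrophage genes were higher in every *ApoE*-/- library than in every WT library, with summed levels of 658, 1409, 2230 and 3395 CPM in *ApoE*-/- replicates 1 to 4 and 297 to 341 CPM in WT libraries, and none of the 11 was at 0. The *ApoE*-/- library with the least of these markers, replicate 1, was also the one with the least *Igf2r*, but the highest sum, in replicate 4, did not go with the highest *Igf2r*. Among *ApoE*-/- libraries, replicate 1 also had the lowest sums of smooth muscle, fibroblast and endothelial markers, at 5613, 4138 and 1829 CPM. The part of any of these cell types in the *Igf2r* difference was not tested.

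*Igf2* (chr7:142650766-142666816, minus strand) encodes insulin-like growth factor 2, the main fetal ligand of the family. It was counted by 16, 13, 14 and 16 read pairs in the *ApoE*-/- libraries and by 14, 18, 14 and 15 in the WT libraries. These correspond to 0.649, 0.569, 0.610 and 0.694 CPM, and to 0.643, 0.843, 0.776 and 0.718 CPM, with overlap between the genotypes. edgeR estimated a log2 fold change of −0.24 (SE 0.21, adjusted p = 0.813). Of the 5723 exon bases of *Igf2*, 3596 are also exons of the read-through gene *Gm49394* on the same strand, which had 1 to 7 counts per library, so pairs in that shared stretch may have been left out as ambiguous and the count of *Igf2* is uncertain.

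The ratio of ligand to receptor within a library does not depend on scaling between libraries. As log2 of counts plus 0.5, *Igf2* over *Igf2r* was −8.85, −9.39, −9.53 and −9.10 in *ApoE*-/- replicates 1 to 4 and −8.91, −8.28, −8.32 and −8.50 in WT replicates 1 to 4. *ApoE*-/- replicate 1 and WT replicate 1 crossed, and otherwise the *ApoE*-/- values were the lower ones. The means were −9.22 ± 0.30 (SD, n = 4) and −8.50 ± 0.29 (SD, n = 4), a difference of −0.71 (two-sided exact permutation test, p = 0.0571, adjusted p = 0.286 over 5 pairs), where 4 against 4 libraries allow no p below 0.0286. The separate log2 fold changes behind it were −0.24 for *Igf2*, with 13 to 18 counts per library, and 0.49 for *Igf2r*.

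*Dlk1* (chr12:109452823-109463336, plus strand) encodes a transmembrane protein related to Notch ligands, known as an inhibitor of fat cell formation. Its levels were 1.58, 1.14, 0.566 and 0.998 CPM in *ApoE*-/- mice, from 13 to 39 counts, and 2.66, 1.12, 0.831 and 3.45 CPM in WT mice, from 15 to 72 counts. WT replicates 1 and 4 were the highest libraries, and WT replicates 2 and 3 lay within the *ApoE*-/- range. Its log2 fold change in edgeR, −0.91 (SE 0.51, adjusted p = 0.597), was the most negative among the members and was not larger than the spread between replicates. It was −0.52 without WT replicate 4 and −1.17 without *ApoE*-/- replicate 1. The summed level of 11 adipocyte markers overlapped between genotypes, at 3790 to 15925 CPM and 7811 to 15422 CPM.

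*Grb10* (chr11:11930508-12038683, minus strand) encodes an adaptor protein that binds the insulin and IGF1 receptors and dampens their signal. It had 194, 129, 126 and 129.8 CPM in *ApoE*-/- mice, and 107, 131, 123 and 123 CPM in WT mice. The highest library was *ApoE*-/- replicate 1, at 1.48 times the highest WT library, and the other *ApoE*-/- libraries lay inside the WT range. edgeR put the log2 fold change at 0.26 (SE 0.16, adjusted p = 0.660), and without that library at 0.09 (SE 0.10, adjusted p = 0.726).

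*Phlda2* (chr7:143501545-143503150, minus strand) encodes a pleckstrin homology protein that limits placental growth. It was counted by 1, 1, 2 and 0 read pairs in *ApoE*-/- libraries and by 0 in all 4 WT libraries. Every value was at or under a floor of 3 counts, which stands for 0.122 to 0.131 CPM in *ApoE*-/- libraries and 0.138 to 0.166 CPM in WT libraries, for counting error only. No fold change was computed for it, and a difference was not detectable at this depth.

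*Plagl1* (chr10:13060504-13131694, plus strand), also called Zac1, encodes a zinc finger transcription factor that acts on other imprinted genes. Its levels were 20.5, 10.8, 20.5 and 10.6 CPM in *ApoE*-/- mice and 15.1, 18.8, 14.3 and 17.6 CPM in WT mice. The *ApoE*-/- libraries fell into a high pair, replicates 1 and 3, and a low pair, replicates 2 and 4, with every WT library between them. In edgeR the log2 fold change was −0.08 (SE 0.26, adjusted p = 0.951), and it turned to 0.06 without *ApoE*-/- replicate 2 or replicate 4. Without *ApoE*-/- replicate 1 it was −0.24 (SE 0.25, adjusted p = 0.710).

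*Peg3* (chr7:6703892-6730431, minus strand) encodes a large zinc finger protein. It had 619, 241, 233 and 239.7 CPM in *ApoE*-/- mice and 345, 232, 249.9 and 301 CPM in WT mice. The level in *ApoE*-/- replicate 1 was 1.79 times the highest WT library, and the other *ApoE*-/- libraries, at 238 ± 4.25 (SD, n = 3), lay at the low end of the WT range. The edgeR log2 fold change was 0.24 (SE 0.35, adjusted p = 0.864) with 8 libraries and −0.25 (SE 0.16, adjusted p = 0.463) without replicate 1.

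*Ndn* (chr7:62346569-62350262, plus strand) encodes necdin, a MAGE family protein abundant in neurons that have left the cell cycle. It had 134, 16.9, 22.4 and 23.5 CPM in *ApoE*-/- mice and 32.5, 39.8, 19.6 and 35.6 CPM in WT mice. Its level in *ApoE*-/- replicate 1 was 3.36 times the highest WT library and 6.38 times the mean of the other *ApoE*-/- libraries, the largest such excess among the members. With 8 libraries edgeR gave 0.62 on the log2 scale (SE 0.67, adjusted p = 0.816), and DESeq2 gave no adjusted p. Without replicate 1 it was −0.61 (SE 0.24, unadjusted p = 0.0378, adjusted p = 0.234) in edgeR and −0.61 (SE 0.27, adjusted p = 0.144) in DESeq2, and the WT library with the lowest level, replicate 3, then still lay inside the *ApoE*-/- range.

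*Mest* (chr6:30723547-30748465, plus strand) encodes an enzyme of the alpha/beta hydrolase fold linked to fat cell size. It had 40.9, 6.25, 10.8 and 7.25 CPM in *ApoE*-/- mice and 9.36, 13, 8.37 and 10.3 CPM in WT mice. Here *ApoE*-/- replicate 1 was 3.14 times the highest WT library, and replicates 2 and 4 lay below every WT library. On the log2 scale edgeR gave 0.67 (SE 0.59, adjusted p = 0.787) and, without replicate 1, −0.34 (SE 0.24, adjusted p = 0.508). Exons of *Copg2* on the opposite strand cover 23.1% of the *Mest* exon bases, and the counts were made by strand.

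*Sgce* (chr6:4674350-4747207, minus strand) encodes epsilon-sarcoglycan, a membrane protein of the dystrophin-linked complex found in smooth muscle and neurons. Its levels were 44.1, 59.0, 52.8 and 52.7 CPM in *ApoE*-/- mice and 52.0, 56.9, 50.2 and 43.6 CPM in WT mice. With 8 libraries it had the smallest log2 difference among the members, though not without *ApoE*-/- replicate 1 (0.12). The means were 52.2 ± 6.15 (SD, n = 4) and 50.7 ± 5.49 (SD, n = 4), and *ApoE*-/- replicate 1 was among the lower libraries. The difference in edgeR was 0.04 on the log2 scale (SE 0.12, adjusted p = 0.948), and it was −0.02 without *ApoE*-/- replicate 2 and −0.03 without WT replicate 4.

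In WT mice, the levels of *Mest*, *Ndn* and *Plagl1* took the order of the sympathetic neuron markers. In the 4 WT libraries, replicates 3, 1, 4 and 2 held 377, 780, 987 and 1353 CPM of the 13 markers in sum, and *Ndn* had 19.6, 32.5, 35.6 and 39.8 CPM in the same order. *Mest* had 8.37, 9.36, 10.3 and 13 CPM and *Plagl1* had 14.3, 15.1, 17.6 and 18.8 CPM in that order, so all 3 members ranked the WT libraries as the markers did. In *ApoE*-/- mice the order of the markers was replicates 2, 4, 3 and 1, at 78.1, 150.1, 593 and 7503 CPM, and *Mest* took the same order. *Ndn*, at 16.9, 23.5, 22.4 and 134 CPM, and *Plagl1*, at 10.8, 10.6, 20.5 and 20.5 CPM, did not take it. The summed nerve glia markers ranked the libraries of both genotypes in the same orders, at 420, 497, 654 and 846 CPM in WT mice and 241, 310, 351 and 1166 CPM in *ApoE*-/- mice, so the sympathetic and glial lists cannot be told apart here.

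This relation was examined after the values had been seen, and for the 9 members only. How many of all genes tested show it was not counted, so it cannot be called particular to these members. Over the 8 libraries, on log2 scales, Pearson's r with the summed markers was 0.92 for *Mest* (exact permutation p = 9.9e-05, adjusted p = 0.000893 over 9 members) and Spearman's rho was 0.93 (exact permutation p = 0.00223, adjusted p = 0.0100). For *Ndn*, r was 0.91 (exact permutation p = 0.000794, adjusted p = 0.00357) and rho 0.93 (exact permutation p = 0.00223, adjusted p = 0.0100). For *Plagl1*, r was 0.86 (exact permutation p = 0.00387, adjusted p = 0.0116) and rho 0.74 (exact permutation p = 0.0458, adjusted p = 0.138). Leaving out *ApoE*-/- replicates 1 and 2, the libraries farthest from the median of the markers, gave r of 0.91 for *Mest*, 0.76 for *Ndn* and 0.84 for *Plagl1* over 6 libraries.

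For *Peg3* the relation rested on those libraries: r was 0.76 (exact permutation p = 0.0336, adjusted p = 0.0755), rho was 0.31 (exact permutation p = 0.462, adjusted p = 0.520), and r was 0.30 without them. *Grb10* likewise went from an r of 0.58 (exact permutation p = 0.156, adjusted p = 0.233) to −0.22, with a rho of 0.24 (exact permutation p = 0.582, adjusted p = 0.582). *Sgce* had the most negative r, −0.65 (exact permutation p = 0.0763, adjusted p = 0.137), with a rho of −0.48 (exact permutation p = 0.243, adjusted p = 0.420), and −0.06 without them. For *Igf2*, r was 0.27 (exact permutation p = 0.519, adjusted p = 0.519) and rho 0.40 (exact permutation p = 0.327, adjusted p = 0.420). For *Igf2r*, r was −0.44 (exact permutation p = 0.286, adjusted p = 0.367) and rho −0.43 (exact permutation p = 0.299, adjusted p = 0.420). For *Dlk1*, r was 0.33 (exact permutation p = 0.430, adjusted p = 0.483) and rho 0.43 (exact permutation p = 0.299, adjusted p = 0.420). Without *ApoE*-/- replicates 1 and 2, r was 0.24, −0.43 and 0.42 for these 3 members. These permutations did not keep the genotypes apart. With each genotype centred on its mean and libraries permuted within a genotype only, r was 0.98 for *Mest* (exact permutation p = 0.00174, the smallest that 576 arrangements can give, adjusted p = 0.0156 over 9 members), 0.94 for *Ndn* (exact permutation p = 0.00694, adjusted p = 0.0312) and 0.85 for *Plagl1* (exact permutation p = 0.0139, adjusted p = 0.0417). Of the other 6 members, none passed an adjusted p of 0.05, with values from 0.221 to 0.642.

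**Figure D4:**
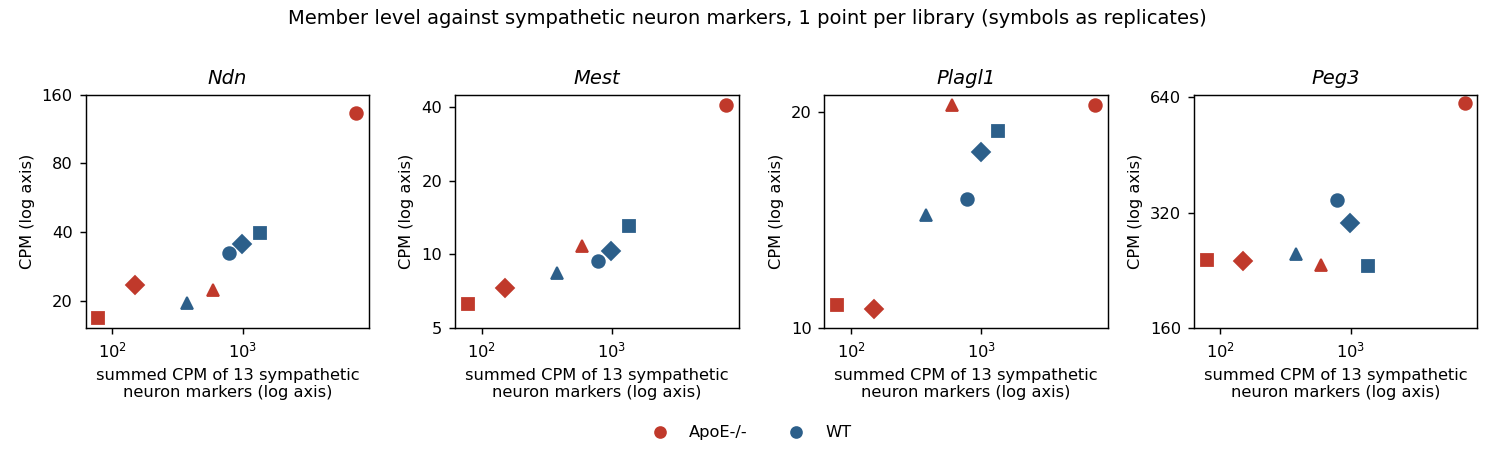
CPM of *Ndn*, *Mest*, *Plagl1* and *Peg3* (vertical log axes) against the summed CPM of 13 sympathetic neuron markers (horizontal log axes), with a point per library (red *ApoE*-/-, blue WT, a symbol per replicate number). *Mest* takes the order of the markers within each genotype and *Ndn* within WT mice, and *ApoE*-/- replicate 1 stands at the far right, at 7503 CPM of markers, with the highest *Ndn*, *Mest* and *Peg3*.

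Partners at the same imprinted locus were compared by their ratio within each library. *Snrpn*, a splicing protein gene of the *Ndn* domain on chromosome 7, had 74.6 CPM in *ApoE*-/- replicate 1 and 6.42 to 19 CPM in the other libraries, so it was high in the same library as *Ndn*. The log2 ratio of *Ndn* to *Snrpn* averaged 1.21 ± 0.45 (SD, n = 4) in *ApoE*-/- libraries, beside 1.11 ± 0.10 (SD, n = 4) in WT libraries (exact permutation p = 0.886). Part of the exons of *Snrpn*, 27.3%, is shared with another counted gene on the same strand. *Usp29*, which starts beside *Peg3* on the opposite strand, had 277 counts in *ApoE*-/- replicate 1 and 3 to 38 in the others. The log2 ratio of *Peg3* to *Usp29* was 5.78 in that library and 7.01 to 9.73 in the 6 others with more than 3 counts of *Usp29*. *ApoE*-/- replicate 2, with 3 counts, was at the floor, so its ratio is not known and no genotype test is given; without it the genotype means differed by −0.05.

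*Copg2*, a coat protein gene that overlaps *Mest*, had 92.3 CPM in *ApoE*-/- replicate 1 and 47.3 to 59.2 CPM elsewhere. The log2 ratio of *Mest* to *Copg2* was −1.17 in that library and −3.03 to −2.15 in the others, so its excess there was larger for *Mest* than for its neighbour, and the genotype means differed by 0.02 (exact permutation p = 1). *Peg10*, the neighbour of *Sgce*, had 15.9 CPM in *ApoE*-/- replicate 1 against 6.25 to 11.1 CPM, and the ratio of *Sgce* to *Peg10* differed by 0.07 between genotypes (exact permutation p = 0.914). The ratios of *Ndn*, *Mest* and *Sgce* to their partners overlapped between genotypes, each with an adjusted p of 1 over 5 pairs. The noncoding partners *H19*, *Meg3* and *Airn* were not analysed here, and *Phlda2* was too low for a ratio to *Cdkn1c*.

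Among 49 further imprinted genes listed, 40 had counts in the files and 34 were tested. edgeR called 1 of the 34 (0.464% of all genes) and DESeq2 called the same 1 (4.97% of the genes with an adjusted p). DESeq2 gave no adjusted p for *Snrpn*, *Nnat*, *Nap1l5*, *Kcnk9* and *Ddc*. Of the 34, 2 did not overlap between genotypes (8.71%). Of the 34, 20 had a log2 fold change above 0 and 14 below, with a median of 0.11. The balance turned without *ApoE*-/- replicate 1, to 14 above and 20 below with a median of −0.11, and 7 then did not overlap (17.3% of all genes). The gene called was *Cdkn1c*, an inhibitor of cyclin-dependent kinases in the same region of chromosome 7 as *Phlda2*. It fell by 1.26 on the log2 scale (SE 0.16, adjusted p = 0.0379 in edgeR). Its levels were 14.3, 14.4, 13.7 and 18.4 CPM in *ApoE*-/- mice and 37.4, 46.0, 30.2 and 32.2 CPM in WT mice. The call was lost in edgeR when any library other than *ApoE*-/- replicate 1 was left out, with adjusted p from 0.0584 to 0.146 and changes from −1.37 to −1.13. DESeq2 called it with 8 libraries (adjusted p = 6.1e-09) and in all 8 fits that left out a library, with adjusted p from 6.81e-10 to 6.26e-06. The next by p were *H13* (0.27, adjusted p = 0.384), *Rasgrf1* (−0.45, adjusted p = 0.453), *Slc22a18* (0.70, adjusted p = 0.464) and *Slc22a3* (0.90, adjusted p = 0.467), none past the threshold in edgeR. *Slc22a18* stood at 0.39 without *ApoE*-/- replicate 1 and *Slc22a3* at 0.59 without *ApoE*-/- replicate 2.

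The highest library was *ApoE*-/- replicate 1 for 21 of these 34 genes (61.8%). Without it, edgeR called 3 of the 34 (3.91% of all genes), all lower in *ApoE*-/- mice (1.16% of all genes were called in that direction): *Cdkn1c* at −1.23 (adjusted p = 0.0126), *Gnas*, the stimulatory G protein alpha subunit, at −0.94 (adjusted p = 0.0266), and *Nnat*, neuronatin, at −1.92 (adjusted p = 0.0256). *Nnat* had 55.8 CPM in *ApoE*-/- replicate 1, 8.16 to 14.8 CPM in the other *ApoE*-/- libraries and 21.7 to 51.3 CPM in WT libraries. *Gnas* had 89.3 CPM in that library, 19.4 to 23.3 CPM in the other *ApoE*-/- libraries and 33.9 to 50.9 CPM in WT libraries. With 8 libraries edgeR gave −0.09 (adjusted p = 0.971) for *Gnas* and −0.91 (adjusted p = 0.708) for *Nnat*. In the same 7 libraries the sympathetic markers summed to 78.1 to 593 CPM in *ApoE*-/- mice and 377 to 1353 CPM in WT mice, and the nerve glia markers to 241 to 351 CPM and 420 to 846 CPM. The part of these markers in the lower *Nnat* and *Gnas* levels was not tested, and neither was that of the cardiac markers in the lower *Cdkn1c* level.

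Genes of the insulin-like growth factor system, into which *Igf2*, *Igf2r* and *Grb10* feed, gave 24 listed genes, all counted, and 22 tested. edgeR called 0 of 22 (0.464% of all genes), with 6 at an unadjusted p under 0.05 (11.4%), and DESeq2 called 2 (4.97%). Both were the insulin receptor substrates that relay the signal inside the cell. *Irs2* had 183, 176, 211 and 153 CPM in *ApoE*-/- mice and 308, 278, 296 and 253 CPM in WT mice, without overlap, and its log2 fold change was −0.65 (SE 0.13, adjusted p = 0.0725 in edgeR, DESeq2 adjusted p = 8.92e-05). *Irs1* had 73.9, 108, 74.2 and 73.9 CPM against 116, 122, 119 and 134 CPM, also without overlap, a change of −0.57 (SE 0.15, edgeR adjusted p = 0.129, DESeq2 adjusted p = 0.0144), and 30.9% of its exon bases lie opposite exons of *Gm9747*. The DESeq2 call of *Irs1* was lost in 6 of the 8 fits that left out a library, with adjusted p from 0.0604 to 0.128, and that of *Irs2* in 0 of 8. The part of the cardiac markers, which were also lower in *ApoE*-/- libraries, was not tested.

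The other genes with the smallest p were *Stc1* (−0.59, edgeR adjusted p = 0.205), *Grb2* (0.39, adjusted p = 0.288) and *Pappa2* (−0.57, adjusted p = 0.382), and 4 of the 22 did not overlap between genotypes (8.71% of all genes), or 7 without *ApoE*-/- replicate 1 (17.3%). The ligand *Igf1* had a log2 fold change of 0.17 (SE 0.14, adjusted p = 0.774) and the receptor *Igf1r* one of 0.00 (SE 0.26, adjusted p = 0.999). Without *ApoE*-/- replicate 1, edgeR called *Irs2* at −0.66 (adjusted p = 0.0487) and *Htra1*, a protease that cleaves IGF binding proteins, at 0.72 (adjusted p = 0.0145). *Htra1* had 109 CPM in replicate 1, 220.1 to 241 CPM in the other *ApoE*-/- libraries and 123 to 156 CPM in WT libraries.

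**Figure D5:**
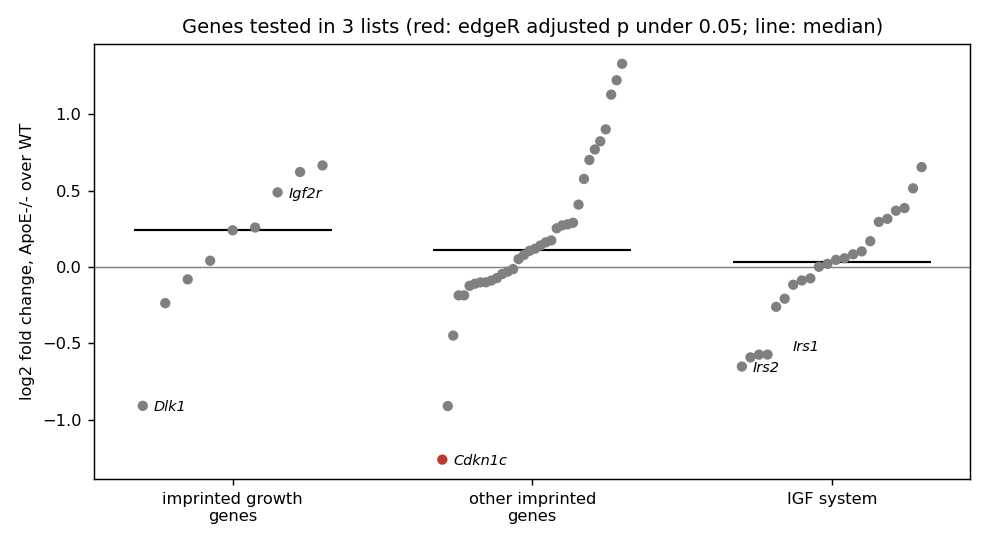
Log2 fold change (*ApoE*-/- over WT, edgeR, 8 libraries) of each gene tested among the imprinted growth genes (9), other imprinted genes (34) and the insulin-like growth factor system (22), sorted within a list, with a line at each median and red for an adjusted p under 0.05. The medians are 0.24, 0.11 and 0.03, and *Cdkn1c* at −1.26 is the only red point.

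For each member, the gene among the other 15076 with the most similar profile of log2 CPM over the 8 libraries was found by Pearson's r, as a description. *Mest* was most like *Prepl* (0.998) and *Ndn* most like *Mapt* (0.995), which encodes the microtubule protein tau. *Plagl1* was most like *Pde8b* (0.989), *Grb10* most like *Kcnn3* (0.978) and *Peg3* most like *Rap1gap* (0.975). All 5 of these partners were highest in *ApoE*-/- replicate 1, *Mapt* at 225 CPM against at most 49.98 CPM elsewhere and *Prepl* at 112 CPM against at most 49.2 CPM. *Igf2r* was most like *Nck2* (0.986), *Dlk1* most like *Muc16* (0.981), *Sgce* most like *F3* (0.981) and *Igf2* most like *Klhl4* (0.958), and none of these 4 was highest in that library. The highest of 15076 coefficients over 8 points is large by selection, and no test is given.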

How the data were processed

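For each mouse the authors deposited a file of unnormalized counts, the read pairs on each gene, with totals for pairs without a gene, ambiguous or not unique. TopHat2, HTSeq and GRCm38 (mm10) are named in the submitters' processing notes; versions and annotation are not given in the sources used here. Pairs without a gene made up 50.1% to 58.0% of all pairs and stayed out of library sizes. Genes were matched to GENCODE M21 (21817 of 21859 identifiers), which gave coordinates and the union of exons. In R 4.3.3, edgeR 4.0.16 was used with filterByExpr, TMM factors, robust quasi-likelihood fits and genotype as the only factor. P-values were two-sided and adjusted over all genes tested by the Benjamini-Hochberg procedure (threshold 0.05), and the SE is the log2 fold change divided by the square root of F. Log2 CPM used a prior count of 2. Ratios were compared over the 70 assignments of 8 libraries, and correlations over all 40320 orders. Scripts were tested on simulated data. Alternatives were DESeq2 1.42.0 (the study's tool), limma-voom (limma 3.58.1), other scaling and filters, no robust estimation, a replicate block, another pseudocount for ratios and leaving out each mouse. DESeq2 without each mouse and the relation to sympathetic markers were added after seeing the data. Replicates were separate mice. Their numbers are shared between genotypes, and whether these mark a shared order of processing is not stated. The members and lists were chosen with earlier results of these data known. Named were all members, their locus or receptor partners, the 5 genes of each other list with the smallest p and the gene most like each member; genes called only without *ApoE*-/- replicate 1, *Igf1* and *Igf1r* were chosen after their values were seen.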

Additional observations from a re-analysis of the deposited data

Results flagged for a closer look

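In 12 of 79 groups of 4 libraries, the highest or lowest library lay far from the others. Its gap, divided by the range of the group, passed Dixon's 95% critical value for 4 samples. Among independent groups of normally distributed values about 1 in 20 would pass, or 3.95 groups. These groups share libraries and their values were not shown to be normal. The 3.95 is therefore no measure of chance for the 12. For *ApoE*-/- replicate 1 the gap was 0.869 of the range for *Mest*, 0.938 for *Grb10*, 0.979 for *Peg3* and 0.944 for *Ndn*, all as the highest of the 4. The same library was the highest for *Snrpn* (0.931) and *Usp29* (0.879), the partners of *Ndn* and *Peg3*, and for the summed markers of sympathetic neurons (0.931) and nerve glia (0.882). The 8 values come from the same library and are not independent of each other.

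Elsewhere, *Cdkn1c* was highest in *ApoE*-/- replicate 4 (0.848), at 18.4 CPM against 13.7 to 14.4 CPM. *Irs1* was highest in *ApoE*-/- replicate 2 (0.992), at 108 CPM against 73.9 to 74.2 CPM. *Pappa2* was highest in *ApoE*-/- replicate 3 (0.920). The summed cardiac muscle markers were lowest in *ApoE*-/- replicate 4 (0.947), at 159.7 CPM against 335 to 344 CPM. *Ryr2* made up most of these sums, at 213, 311, 293 and 123 CPM in *ApoE*-/- replicates 1 to 4. The place of replicate 4 therefore rests mainly on that gene.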

How the results depend on the processing

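The 9 members tested kept their direction in all 72 comparisons from alternatives with 8 libraries, and none passed the threshold, but limma-voom and the replicate block brought *Ndn* from 0.62 to 0.098 and 0.063, *Mest* from 0.67 to 0.24 and 0.20 and *Peg3* from 0.24 to 0.11 in both, and *Plagl1* went from −0.08 to −0.15 in both; DESeq2 gave no adjusted p for *Ndn* in 7 settings and for *Mest* in 1. When libraries were left out, 129 values kept their direction and call, 14 turned direction and 1 passed the threshold (*Igf2r*, DESeq2, without *ApoE*-/- replicate 1). Log2 fold changes then ranged from −0.35 to 0.93 for *Mest*, −0.25 to 0.064 for *Plagl1*, −0.25 to 0.38 for *Peg3*, −0.61 to 0.91 for *Ndn*, −0.034 to 0.12 for *Sgce*, −0.30 to 0.21 for *Peg10*, −0.80 to 1.09 for *Snrpn* and −1.17 to 1.62 for *Usp29*; the cause was not tested. limma-voom turned *Peg10* (−0.025) and *Usp29* (−0.56). Between genotypes, libraries with the same replicate number correlated at −0.39 to 0.42 and those with different numbers at −0.66 to 0.69, which shows no pairing by number. The replicate block turned *Peg10* (−0.034), *Snrpn* (−0.068) and *Usp29* (−0.49). With libraries left out, ratio differences ranged from −0.11 to 0.42 for *Sgce* to *Peg10*, −0.12 to 0.22 for *Ndn* to *Snrpn*, −0.38 to 0.24 for *Mest* to *Copg2* and −0.048 to 1.57 for *Peg3* to *Usp29*, where *ApoE*-/- replicate 2 is at the floor.

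Over the whole table edgeR called 70 genes, DESeq2 725, limma-voom 29 and the replicate block 2; leaving out a library gave 0 to 593 in edgeR and 445 to 1562 in DESeq2. Members called numbered 0 to 1. Other imprinted genes called numbered 0 under the replicate block, 0 to 3 in edgeR and 1 to 5 in DESeq2 without a library, and genes of the insulin-like growth factor system 2 in DESeq2, and 0 to 2 and 1 to 5 without a library. Other scaling moved the median of all genes from 0.05 to between 0.01 and 0.04. Depth limits *Phlda2*, *Igf2* and *Dlk1*.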

Other observations

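Beside *Ndn*, *Mest*, *Snrpn* and *Usp29*, further imprinted genes were far higher in *ApoE*-/- replicate 1 than in any other library, and 3 of them are given here as examples chosen after their values were seen. *Dlk1* and *Nnat* showed no such excess. *Nap1l5*, a nucleosome assembly protein gene, had 87.3 CPM in *ApoE*-/- replicate 1, 6.73 to 12.9 CPM in the other *ApoE*-/- libraries and 9.09 to 22 CPM in WT libraries. *Ddc*, the enzyme that makes dopamine from L-DOPA, had 493 CPM in that library, 1.62 to 40.6 CPM in the others of its genotype and 26.6 to 98.5 CPM in WT libraries. *Kcnk9*, a potassium channel gene, had 14.6 CPM in it, 0.131 to 1.35 CPM in the others and 0.443 to 2.59 CPM in WT libraries. Their log2 fold changes were 0.82, 1.13 and 1.33 with 8 libraries and −0.85, −1.86 and −1.51 without it, and none passed the threshold in edgeR either way.

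Outside the nerve markers, DESeq2 called 5 of the 22 genes of the insulin-like growth factor system without *ApoE*-/- replicate 1, where it called 10.3% of all genes. Of the 5, 2 have not been described and were lower in that library than in the other *ApoE*-/- libraries. *Pappa*, a protease that frees IGF from its binding proteins, had 13 CPM in that library, 19.6 to 33.8 CPM in the other *ApoE*-/- libraries and 11.8 to 15.1 CPM in WT libraries (without it, log2 fold change 0.83, SE 0.24, DESeq2 adjusted p = 0.00865). *Igfbp7*, a binding protein of the vessel wall, had 395 CPM in it, 843 to 962 CPM in the others and 528 to 749 CPM in WT libraries (0.59, SE 0.15, DESeq2 adjusted p = 0.00217). Without that library edgeR called neither *Pappa* (adjusted p = 0.0718) nor *Igfbp7* (adjusted p = 0.0857). With 8 libraries edgeR gave 0.65 (adjusted p = 0.385) for *Pappa* and 0.37 (adjusted p = 0.753) for *Igfbp7*.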
